A study of Mus musculus with 48 samples.

Results

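The apolipoprotein L genes described here are Apol6, Apol9a, Apol9b and Apol10b, 4 of the 49671 genes in the deposited count table. They were selected on the large rise of Apol6 CPM in cells given IFNγ over unstimulated cells, so every comparison of IFNγ alone with unstimulated cells is given as a description without a test. Apolipoprotein L proteins are lipid-binding proteins of the cell interior and, for human APOL1, of the blood, where APOL1 in high-density lipoprotein particles kills trypanosomes. Many members of the family are induced by interferons, and human APOL6 has been studied as a protein with a BH3-like motif that can promote cell death. Mouse Apol9a and Apol9b lie in the same gene cluster, are known as interferon-stimulated genes and bind phosphatidylethanolamine. Apol10b belongs to the same cluster.

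The cells were NMM, a mouse melanoma line carrying mutated NRAS, grown in vitro. All 48 libraries come from this line, and every group shares the NRAS mutation. The 12 groups were unstimulated cells, IFNγ at 0.01, 1 or 100 ng/ml, TNF at 0.1, 1 or 10 ng/ml, IFNγ at 100 ng/ml given with TNF at 10 ng/ml (called the combination), 6000 U/ml of IL-2, 2 ng/ml of lymphotoxin A1 B2, 10 ng/ml of TGFβ and 5000 U/ml of IFNα1. Each group had 1 library after 2, 6, 12 and 24 h of continuous stimulation, so a group value is a mean over 4 durations and no duration has a replicate. No label tells if the libraries of a group are separate cultures, so p-values measure only the spread between these libraries. This spread includes any difference of a stimulus effect between durations, and the rest of it may be technical.

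Apol6 lies on chromosome 15 of GRCm38 at 77044729 to 77057107 on the plus strand (ENSMUSG00000033576). Apol9a lies at 77403789 to 77411080 on the minus strand (ENSMUSG00000057346), Apol10b at 77584158 to 77596125 on the minus strand (ENSMUSG00000050014) and Apol9b at 77729121 to 77736381 on the plus strand (ENSMUSG00000068246). RefSeq promoter sequences (GRCm38.p6) were matched for 3 of the 4 members, Apol9a, Apol9b and Apol10b. They are printed to show how alike the upstream sequences of Apol9a and Apol9b are, and which interferon or NF-κB type letters they hold. Each line gives the 250 bases before an annotated start, 5′ to 3′ on the gene's strand. Capitals mark matches, on either strand, to GAAANNGAAA (the core of the interferon-stimulated response element, ISRE) in Apol9a and Apol9b and to the κB motif in Apol10b.
Apol9a chr15:77411081-77411330 minus: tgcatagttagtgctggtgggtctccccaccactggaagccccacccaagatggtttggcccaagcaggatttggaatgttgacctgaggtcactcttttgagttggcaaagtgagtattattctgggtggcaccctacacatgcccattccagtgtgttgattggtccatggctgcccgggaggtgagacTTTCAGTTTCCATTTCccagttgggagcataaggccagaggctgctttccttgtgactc
Apol9b chr15:77728822-77729071 plus: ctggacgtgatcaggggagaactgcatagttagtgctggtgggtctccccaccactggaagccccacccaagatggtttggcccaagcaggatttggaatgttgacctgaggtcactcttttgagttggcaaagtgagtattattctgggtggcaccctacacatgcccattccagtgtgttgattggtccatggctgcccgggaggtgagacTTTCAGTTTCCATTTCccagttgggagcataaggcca
Apol10b chr15:77596126-77596375 minus: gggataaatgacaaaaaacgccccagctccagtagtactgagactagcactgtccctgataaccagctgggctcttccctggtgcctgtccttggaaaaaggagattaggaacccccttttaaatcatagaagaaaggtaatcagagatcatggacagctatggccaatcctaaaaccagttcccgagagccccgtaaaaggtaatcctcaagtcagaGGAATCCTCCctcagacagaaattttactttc

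The Apol9a and Apol9b sequences overlap over 228 bases that are all identical. Within that stretch both hold the same pair of overlapping ISRE core matches, TTTCAGTTTC and TTTCCATTTC on the strand shown. Counted from the starts of the printed lines, the pair spans bases 59 to 44 before Apol9a and bases 37 to 22 before Apol9b. Each gene has another annotated start, from which the pair spans bases 105 to 90 for Apol9a and 86 to 71 for Apol9b. The distance thus depends on the start taken. An ISRE core match of this kind stands in 2.98% of 32851 RefSeq promoters cut to the same 250 bases. The single κB match of Apol10b lies 32 to 23 bases before its start, and 9.55% of the promoters hold one. None of the 3 windows holds TTCNNNGAA, the letters of the gamma-activated site (GAS), which 7.02% of promoters hold. These matches describe letters only and were not tested for binding.

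Libraries held 5612907 to 9663207 counts, and 1 count was worth 0.105 to 0.179 CPM (CPM is the count scaled to a common library total with TMM factors, and is used for all levels here). Mitochondrial genes took 0.513% to 1.44% of the counts. Of the melanocyte lineage markers, Mitf was present at 3.52 to 12.8 CPM, and Pmel and S100b had 152 and 99 counts over all 48 libraries. Tyr, Tyrp1 and Sox10 had 2 counts each and Dct and Mlana had 0, so 5 of the 8 melanocyte markers were at or near 0 in this melanoma line. The T and NK cell markers Cd3e, Cd3g, Cd8a and Ncr1 had 0 counts in all 48 libraries. The fibroblast markers Pdgfra, Dcn and Col1a1 summed to 14.9 to 68.7 CPM, with Col1a1 at 1.47 CPM or lower. Cd68 of the macrophage list (1.61 to 5.24 CPM) and Cdh5 of the endothelial list (2.59 to 26.2 CPM) were present in every library. The other markers of both lists were near 0. Over all 48 libraries Ptprc had 14 counts, Csf1r 21, Adgre1 0, Pecam1 39 and Kdr 6.

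The 4 genes fell into 2 kinds by level. Apol9a and Apol9b were expressed in every library without any cytokine, and Apol6 and Apol10b were close to 0 outside the interferon-treated cells. Per kilobase of the longest coding transcript, the mean unstimulated level was 53.7 CPM for Apol9a, 28.7 CPM for Apol9b, 0.137 CPM for Apol6 and 0.0463 CPM for Apol10b. In the combination the same per-kilobase levels were 96.4, 53.2, 19.02 and 2.48 CPM. The per-kilobase level of Apol6 therefore stayed below that of Apol9b in the group where Apol6 was highest. The order of Apol9a and Apol9b depends on the length used. Their transcripts here have 1530 and 1573 bases, while all annotated exons together cover 5953 and 1821 bases. How reads were split between these 2 genes is also not known. All 4 members passed the filter on low counts. Apol10b did so through the libraries with 1 or 100 ng/ml IFNγ, since it did not exceed 0.618 CPM in any other, so the number of members that passed is no evidence about them.

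**Figure D1:**
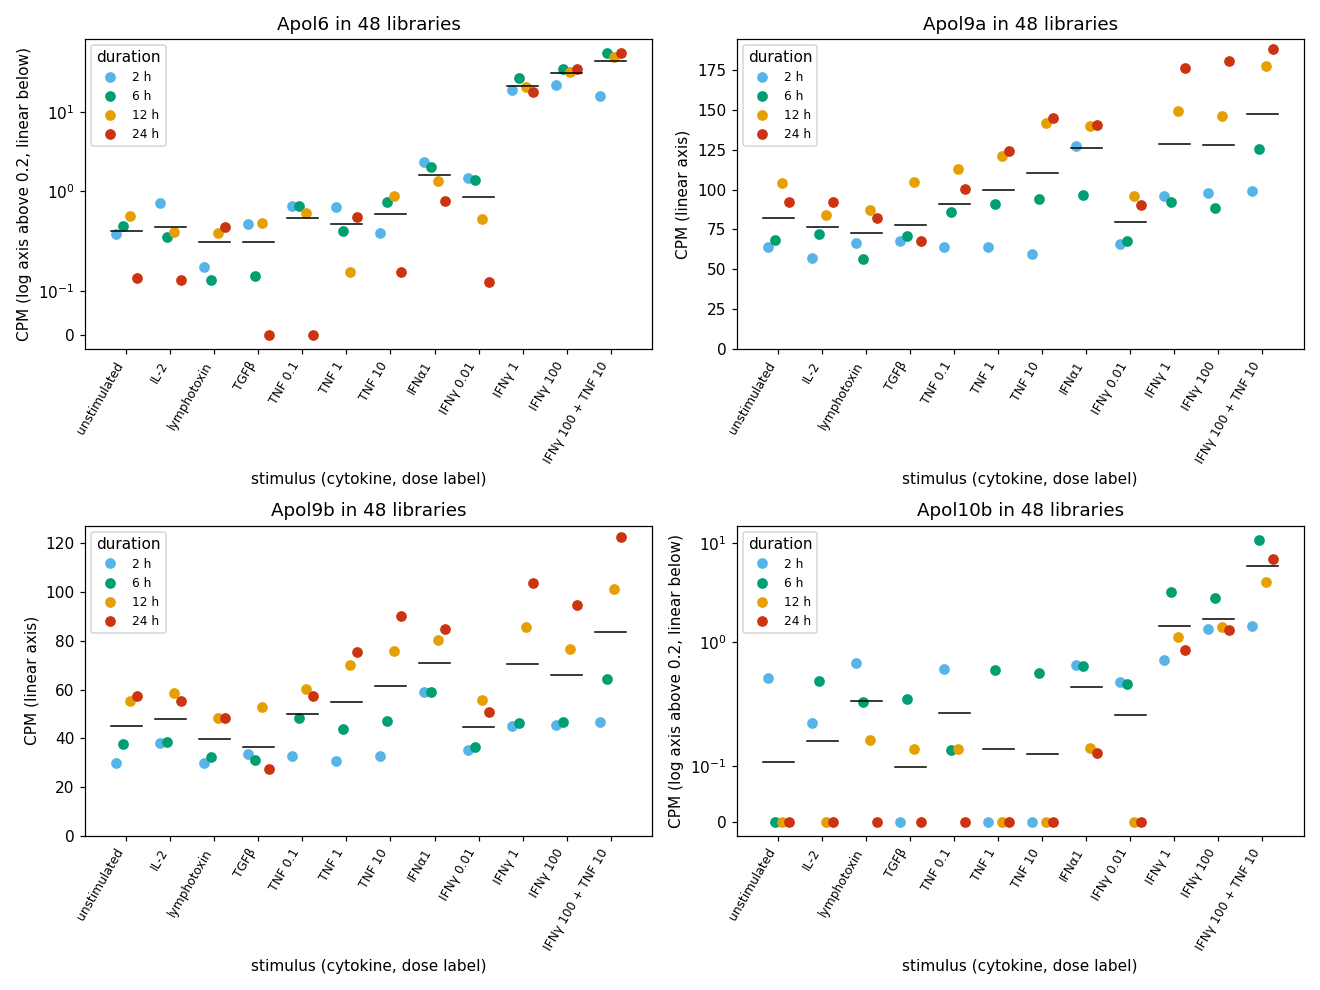
CPM of the 4 genes in all 48 libraries, by stimulus (x axis; doses in ng/ml for TNF and IFNγ), with 1 point per library coloured by duration and a line at the mean of 4. Apol6 sits at 15.96 CPM or higher with 1 or 100 ng/ml IFNγ and at 2.34 CPM or lower in every other library, while for Apol9a and Apol9b the ranges of neighbouring groups overlap and the 12 h library is above the 2 h and 6 h libraries in every group.

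The selected pattern was largest for Apol6. In unstimulated cells Apol6 stood at 0.287, 0.370, 0.482 and 0.130 CPM after 2, 6, 12 and 24 h, from 9 counts in all. With 100 ng/ml IFNγ it stood at 21.6, 34.9, 32.2 and 34.5 CPM at the same durations, from 879 counts. All 4 IFNγ libraries were far above all 4 unstimulated ones, already after 2 h. In such bulk RNA, fewer cells with the transcript and less RNA per cell cannot be told apart. The ratio of pooled counts was 98.0, with a 95% interval of 51.4 to 215 that covers counting error only. The fitted log2 change was 6.57, and this comparison chose the genes and was not tested. At 1 ng/ml Apol6 stood at 18.7, 26.6, 20.8 and 17.98 CPM, a fitted log2 change of 6.03.

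The gap in Apol6 between the 2 higher IFNγ doses was wider at each later duration, while the order of the 3 doses was the same at all 4. The log2 ratio of 100 over 1 ng/ml was 0.20 at 2 h, 0.39 at 6 h, 0.62 at 12 h and 0.93 at 24 h. At 2 h the doses thus lay close together, at 18.7 CPM with 1 ng/ml and 21.6 CPM with 100 ng/ml. At 24 h Apol6 stood at 17.98 CPM with 1 ng/ml, near its 2 h level, and at 34.5 CPM with 100 ng/ml. With 0.01 ng/ml Apol6 stood at 1.46, 1.38, 0.451 and 0.120 CPM. Only the 2 h and 6 h libraries of this lowest dose, with 11 counts each, were above every unstimulated library. Those of 12 h and 24 h, with 3 and 1 counts, were below the highest unstimulated library.

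Apol10b followed with much lower counts. Its unstimulated libraries held 3 counts at 2 h and 0 at the other durations. With 100 ng/ml IFNγ it stood at 1.36, 2.75, 1.42 and 1.32 CPM, from 48 counts, and with 1 ng/ml at 0.665, 3.22, 1.11 and 0.824 CPM, from 41 counts. Both IFNγ groups lay above the unstimulated range in all 4 libraries, and both were highest at 6 h. The pooled ratio to unstimulated cells was 16.1 at 100 ng/ml (95% interval 5.18 to 80.6, counting error only) and 14.04 at 1 ng/ml (4.48 to 70.9). With 0.01 ng/ml Apol10b had 6 counts in all.

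Apol9a and Apol9b moved far less with IFNγ. Apol9a stood at 63.9, 68.2, 104 and 92.5 CPM in unstimulated cells and at 98.1, 88.4, 146 and 181 CPM with 100 ng/ml IFNγ. Apol9b stood at 29.99, 37.8, 55.1 and 57.5 CPM in unstimulated cells and at 45.5, 46.6, 76.5 and 94.5 CPM with 100 ng/ml IFNγ. At each duration the IFNγ library was the higher, while the ranges over durations overlapped. The fitted log2 changes were 0.63 for Apol9a and 0.53 for Apol9b at 100 ng/ml, 0.63 and 0.61 at 1 ng/ml, and -0.03 and -0.01 at 0.01 ng/ml. The log2 ratio of 100 over 1 ng/ml lay between -0.17 and 0.03 at every duration for both genes, in contrast to Apol6.

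**Figure D2:**
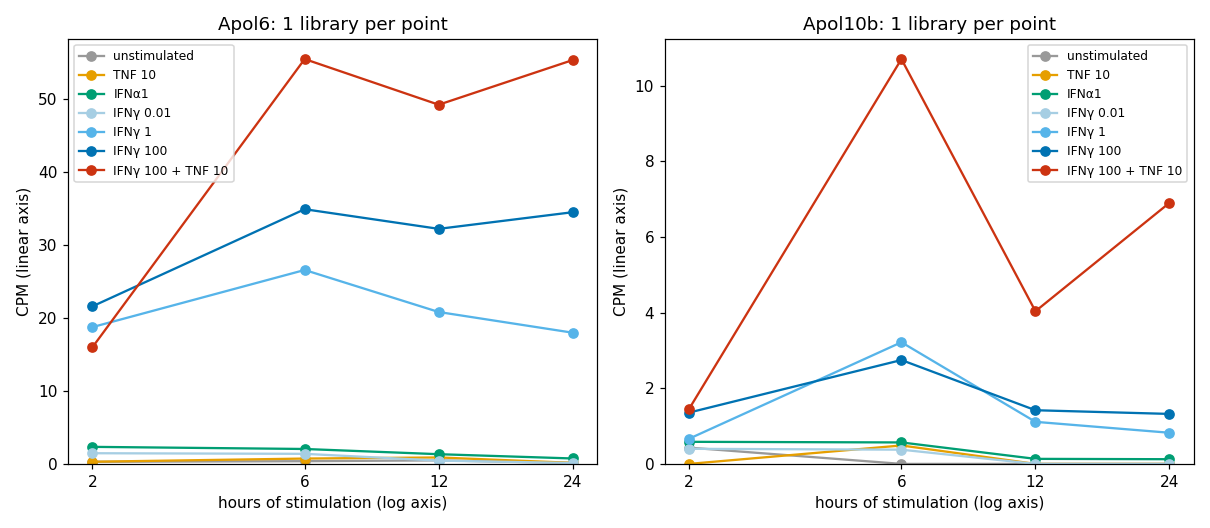
Apol6 and Apol10b in CPM (linear axis) against hours of stimulation (log axis), with 1 library per point and 1 line per stimulus. Apol6 reaches 55.5 CPM in the combination at 6 h, and Apol10b peaks there at 10.7 CPM, while the unstimulated and TNF 10 ng/ml lines stay under 1 CPM.

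Adding IFNγ to TNF raised all 4 genes. This comparison of the combination with TNF at 10 ng/ml uses neither the unstimulated libraries nor those of IFNγ alone. The combination contains IFNγ, however, so it is not free of the choice of genes by the Apol6 rise with IFNγ. Apol6 stood at 0.294, 0.731, 0.883 and 0.144 CPM with TNF alone and at 15.96, 55.5, 49.2 and 55.4 CPM in the combination. All 4 combination libraries were above all 4 TNF libraries, and the log2 change was 6.34 ± 0.38 (SE, n = 4 durations per group, adjusted p = 2.56e-15, edgeR quasi-likelihood test). Apol10b had 4 counts with TNF alone, all at 6 h, and stood at 1.45, 10.7, 4.04 and 6.91 CPM in the combination, from 191 counts. These ranges also did not overlap. The Apol10b log2 change was 5.32 ± 0.64 (adjusted p = 4.80e-08). It was 7.96 without the 6 h libraries, where the TNF group is left with 0 counts and the fitted value depends on the prior count. Apol10b passed the filter on low counts through libraries with IFNγ, the combination among them, which favours a high value there. Its p-value in this comparison is therefore no independent evidence of a rise. The pooled count ratio of Apol10b was 44.3, with a 95% counting interval of 17.02 to 164.

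In the same comparison Apol9a stood at 59.4, 94.3, 142 and 145 CPM with TNF alone and at 99.1, 125, 178 and 188 CPM in the combination. Apol9b stood at 32.8, 46.9, 76.0 and 90.4 CPM with TNF alone and at 46.6, 64.5, 101 and 123 CPM in the combination. Both were higher in the combination at all 4 durations, although the ranges overlapped. Apol9a rose by 0.44 ± 0.13 on the log2 scale (adjusted p = 0.0216) and Apol9b by 0.45 ± 0.15 (adjusted p = 0.0322). These 2 calls were lost without the 6 h libraries (adjusted p = 0.0941 for Apol9a and 0.165 for Apol9b) and without the 12 h libraries (0.114 and 0.184), while the log2 changes stayed between 0.36 and 0.48. Apol6 and Apol10b were called whichever duration was left out. Of all 12203 genes tested, 14% were called in this comparison and 9.12% were called higher, against 4 of 4 members. The members were chosen on a rise with IFNγ, and Apol10b passed the filter through libraries with IFNγ. Apol9a and Apol9b may also share reads. The count of 4 is therefore no evidence about the members as a set.

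Adding TNF to IFNγ was compared as the combination against IFNγ at 100 ng/ml, whose libraries helped choose the genes, which favours a high value there. Apol10b rose by 1.73 ± 0.41 on the log2 scale (adjusted p = 0.0027, edgeR) and was the 1 member of 4 called, where 13.9% of all genes were called and 8.49% were called higher. The 2 h libraries were alike, at 1.36 CPM with IFNγ and 1.45 CPM in the combination, and the log2 ratio was 1.86 at 6 h, 1.35 at 12 h and 2.17 at 24 h. The call was lost without the 6 h libraries (log2 change 1.62, adjusted p = 0.0857) and with DESeq2 (1.89, adjusted p = 0.0681).

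Apol6 was lower in the combination than with IFNγ at 2 h, at 15.96 against 21.6 CPM, and higher at 6, 12 and 24 h, with log2 ratios of 0.66, 0.61 and 0.68. Over all 4 durations its log2 difference was 0.48 ± 0.21 (adjusted p = 0.13). Without the 2 h libraries, the duration where Apol6 was lower in the combination, it was 0.65 and passed the test (adjusted p = 0.00406). In all, this Apol6 difference was called in 2 of 11 alternatives. The log2 differences of Apol9a, 0.20 ± 0.13 (adjusted p = 0.325), and Apol9b, 0.33 ± 0.14 (adjusted p = 0.124), did not pass. Both were close to 0 at 2 h, at 0.01 for Apol9a and 0.03 for Apol9b.

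IFNα1, the type I interferon of the set, raised Apol6, Apol9a and Apol9b. Apol6 stood at 2.34, 2.04, 1.33 and 0.744 CPM, from 50 counts, and every IFNα1 library was above every unstimulated one. Its log2 change was 2.31 ± 0.70 (adjusted p = 0.0276), and the call was lost without the 6 h libraries (adjusted p = 0.225) or the 12 h libraries (0.112), and without the filter on low counts (0.0898). In all, Apol6 was called in 6 of 12 alternatives. The mean Apol6 level with IFNα1, 1.61 ± 0.717 CPM (SD over the durations, n = 4), was below the lowest library with 1 ng/ml IFNγ, at 17.98 CPM. The doses of IFNα1 (U/ml) and IFNγ (ng/ml) are in unlike units, so these levels do not compare the strength of the interferons. Apol6 was lower at each later duration under IFNα1, and its slope on log2 of hours relative to unstimulated cells, -0.32 ± 0.47 per doubling of time (adjusted p = 0.83), did not pass the test.

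Apol9a stood at 127, 96.8, 140 and 141 CPM with IFNα1, a log2 change of 0.64 ± 0.14 (adjusted p = 0.00111). Apol9b stood at 59.1, 59.1, 80.5 and 84.8 CPM, a log2 change of 0.68 ± 0.15 (adjusted p = 0.00182). Both were higher than unstimulated cells at every duration, and for Apol9b the 4 IFNα1 libraries lay above all unstimulated ones. The largest log2 ratio was at 2 h for both genes, 0.99 for Apol9a and 0.97 for Apol9b. Both calls held whichever duration was left out. Without the duration term in the model they were lost (adjusted p = 0.414 for Apol9a and 0.604 for Apol9b). Apol10b had 11 counts with IFNα1 against 3 in unstimulated cells, a pooled ratio of 3.40 (95% counting interval 0.899 to 19.01), and its log2 change of 1.60 ± 1.13 did not pass (adjusted p = 0.442). Together, 3 of 4 members were called, where 9.27% of all genes were called and 6.18% were called higher. The unstimulated libraries of this and the next comparisons are those that chose the genes, which favours a low Apol6 value there. With the IL-2 libraries as the reference, the same 3 members were called.

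TNF alone gave small differences. With 10 ng/ml, Apol9a was higher than in unstimulated cells at 6, 12 and 24 h and lower at 2 h, with log2 ratios of -0.10, 0.47, 0.44 and 0.65 from 2 to 24 h. Its log2 change was 0.39 ± 0.14 (adjusted p = 0.0402), and the call was lost without the libraries of 6 h (adjusted p = 0.167), 12 h (0.208) or 24 h (0.18). Apol9b had log2 ratios of 0.13, 0.31, 0.46 and 0.65, and its log2 change of 0.41 ± 0.15 missed the threshold (adjusted p = 0.0532), but passed without the 2 h libraries (0.50, adjusted p = 0.0238) and with DESeq2 (adjusted p = 0.0368). Apol6 had 15 counts with TNF against 9 without, a log2 change of 0.71 ± 0.90 (adjusted p = 0.643). Thus 1 of 4 members was called with TNF at 10 ng/ml, where 17.1% of all genes were called and 9.83% were called higher. The lower TNF doses gave log2 changes of 0.27 ± 0.14 (1 ng/ml) and 0.15 ± 0.14 (0.1 ng/ml) for Apol9a, and of 0.26 ± 0.15 and 0.16 ± 0.15 for Apol9b.

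With TNF at 1 or 0.1 ng/ml, TGFβ, lymphotoxin or IL-2, edgeR called 0 of 4 members in each comparison with unstimulated cells, and so did DESeq2. At an unadjusted p under 0.05 the count was 1 for TNF at 1 ng/ml, namely Apol9a, and 0 for the other 4. Of all genes, 2.72% were called with TNF at 1 ng/ml, 0.0164% with TNF at 0.1 ng/ml and 8.28% with TGFβ, and 0% with lymphotoxin and with IL-2, where 195 and 152 genes had an unadjusted p under 0.05 and DESeq2 called 0 in each. The Apol9a log2 changes were -0.05 ± 0.14 with TGFβ, -0.16 ± 0.14 with lymphotoxin and -0.10 ± 0.14 with IL-2. Those of Apol9b were -0.27 ± 0.16, -0.18 ± 0.16 and 0.09 ± 0.15. Apol6 and Apol10b had at most 9 counts over the 4 libraries of each of these 3 cytokines, so a fall or a small rise in them was not detectable at this depth. In the TGFβ group the 24 h library stood lowest for both Apol9 genes, at 67.8 CPM for Apol9a and 27.6 CPM for Apol9b, with log2 ratios to the unstimulated 24 h library of -0.45 and -1.05.

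**Figure D3:**
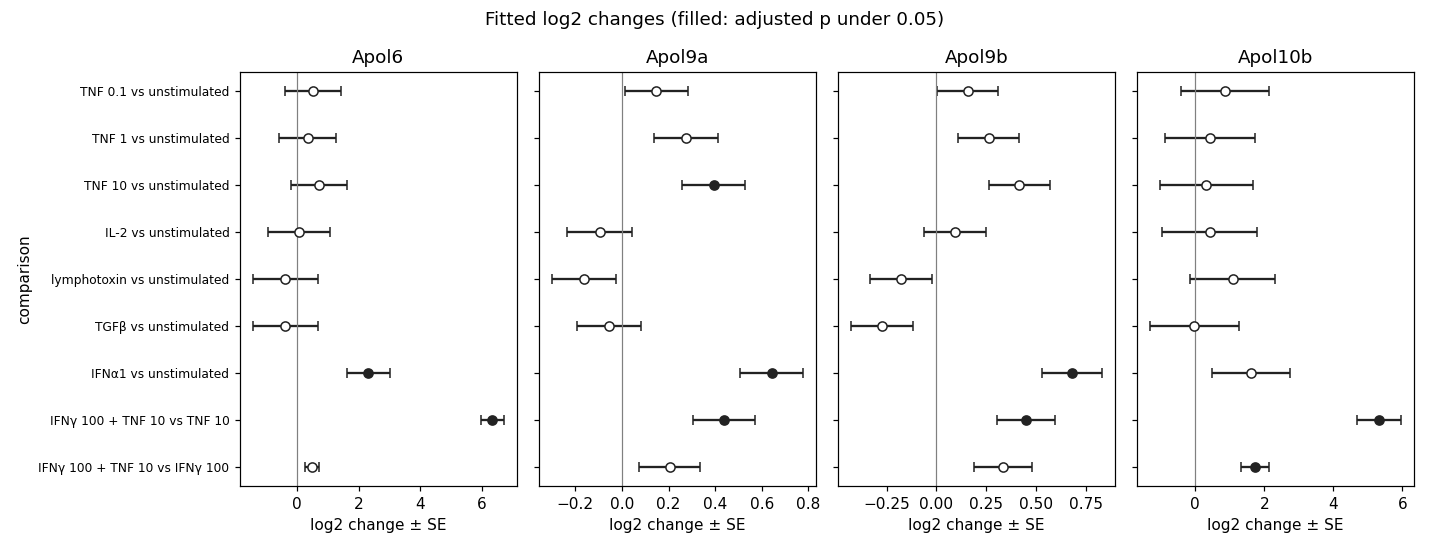
Fitted log2 changes (x axis, error bars ± approximate SE) of the 4 genes in the 9 tested comparisons, with filled points at an adjusted p under 0.05 and a separate x range per gene. Adding IFNγ to TNF gives 6.34 for Apol6 and 5.32 for Apol10b, while no change of Apol9a or Apol9b exceeds 0.68.

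The order of the 12 groups differed between the genes. Apol6 was highest in the combination, at 44.01 ± 18.9 CPM (SD, n = 4), then with IFNγ at 100 ng/ml (30.8 ± 6.26) and 1 ng/ml (21.03 ± 3.89), IFNα1 (1.61 ± 0.717) and IFNγ at 0.01 ng/ml (0.853 ± 0.670). The other 7 groups had means of 0.229 to 0.513 CPM. Along this order the ranges of neighbouring groups overlapped everywhere but between IFNγ at 1 ng/ml and IFNα1. Apol10b showed its only gap at the same place, between IFNγ at 1 ng/ml (1.45 ± 1.19 CPM) and IFNα1 (0.352 ± 0.258 CPM). For Apol9a and Apol9b all neighbouring groups overlapped, from 148 ± 42.4 CPM in the combination to 73.0 ± 14.3 with lymphotoxin for Apol9a, and from 83.7 ± 34.5 in the combination to 36.2 ± 11.3 with TGFβ for Apol9b.

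Apol9a and Apol9b also differed by duration without an interferon. In the 16 libraries of unstimulated, IL-2, lymphotoxin and TGFβ cells, Apol9a averaged 63.8 CPM at 2 h, 66.9 at 6 h, 95.1 at 12 h and 83.7 at 24 h. Apol9b averaged 32.8, 34.9, 53.7 and 47.2 CPM. For Apol9a the 2 h and 6 h libraries lay between 56.2 and 72.4 CPM and the 12 h libraries between 84.1 and 105 CPM. The 24 h means are lowered by the TGFβ library, at 67.8 CPM for Apol9a and 27.6 CPM for Apol9b. The other 24 h libraries lay between 82.3 and 92.5 CPM for Apol9a and between 48.3 and 57.5 CPM for Apol9b. According to the column headers, the 24 libraries of 2 h and 6 h and the 24 of 12 h and 24 h used the same 24 index sequences, so duration cannot be told apart from any split of the sequencing pools between these sets. Comparisons between stimuli were made within durations.

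Whether a stimulus effect grew with time was tested as a difference of slopes on log2 of hours. For TNF at 10 ng/ml against unstimulated cells, IFNα1 against unstimulated cells and the combination against TNF, 0 of 4 members were called by edgeR or DESeq2 in each, where 2.43%, 0.828% and 3.27% of all genes were called. At an unadjusted p under 0.05 the counts were 2, 1 and 0 members. The Apol9a slope with TNF was 0.19 ± 0.09 per doubling of time (adjusted p = 0.324), and that of Apol6 in the combination against TNF was 0.46 ± 0.35 (adjusted p = 0.574).

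Apol9a and Apol9b share most of their sequence. Their longest coding transcripts in GENCODE vM21 (GRCm38), of 1530 and 1573 bases, matched at 1452 of 1475 aligned bases, or 98.4%. Of the 1481 stretches of 50 bases in the Apol9a transcript, 851 (57.5%) also occur in Apol9b transcripts, and 783 of 1524 (51.4%) in the reverse direction. How reads that match both genes were counted is not given in the sources used here, so the values of the 2 genes are uncertain individually. The Apol9a to Apol9b count ratio was 1.87 ± 0.215 (SD, n = 48 libraries), with a range of 1.43 to 2.46, and the log2 CPM values had a Pearson r of 0.957 over the 48 libraries, which share depth and possibly reads. Mean ratios by group ran from 1.62 ± 0.197 with IL-2 to 2.19 ± 0.220 with TGFβ, and the pair diverged most in the 24 h TGFβ library, where the ratio was 2.46. By duration the mean ratio was 2.01 at 2 h, 1.91 at 6 h, 1.79 at 12 h and 1.75 at 24 h.

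**Figure D4:**
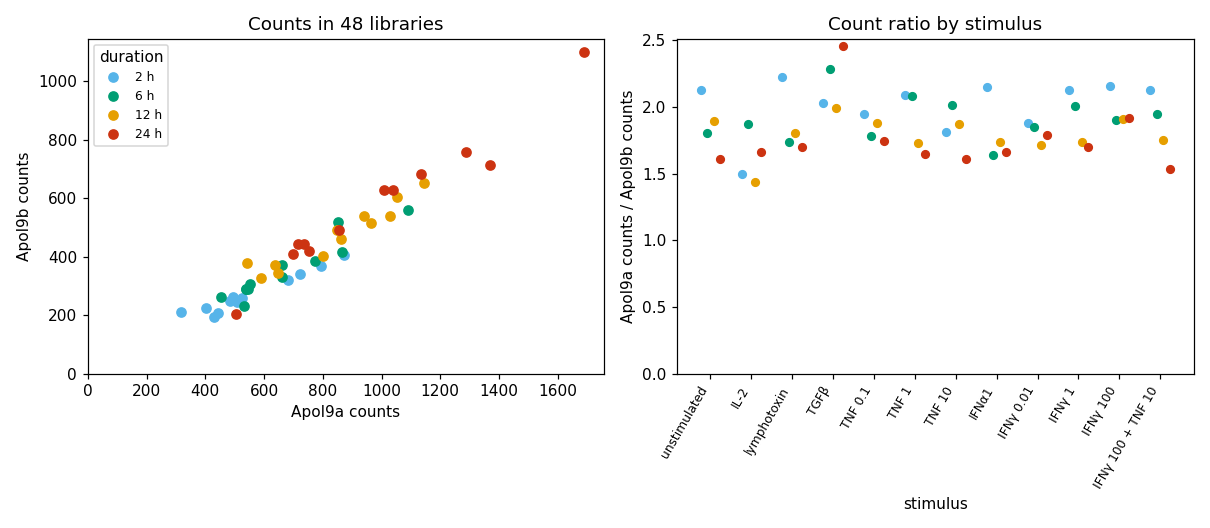
Left, Apol9b counts against Apol9a counts (linear axes) in the 48 libraries, coloured by duration; right, the ratio of the counts by stimulus, 1 point per library in the same colours. The ratios run from 1.43 to 2.46, and the highest is the 24 h TGFβ library.

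Apol6 and Apol10b shared little sequence with the other members. Of the Apol10b stretches of 50 bases, 6.11% occur in other genes' transcripts, mainly Apol10a, which had 1 count in all 48 libraries, and Apol11b, which had 0. For Apol6 the share was 0.751%, all from Mb (myoglobin), a gene on the opposite strand that overlaps Apol6 by 64 exonic bases. Mb had 5 counts in all 48 libraries, against 3028 for Apol6.

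Of 13 Apol rows in the table, 12 lie on chromosome 15 between 77044729 and 77755229, and 6 had enough counts to be tested, the 4 members, Apol7a and Apol8. The other 7 held 0 to 3 counts over 48 libraries, except Apol7d on chromosome 1 with 177. Apol7a, at 1.02, 1.59, 2.39 and 3.10 CPM with IFNα1 against 1.00, 0.123, 0.965 and 1.17 CPM in unstimulated cells, rose with IFNα1 by 1.32 ± 0.37 on the log2 scale (adjusted p = 0.0157). Its log2 change on adding IFNγ to TNF was 0.95 ± 0.34 (adjusted p = 0.0537). Against unstimulated cells the Apol7a log2 change was also 0.54, 1.03 and 0.96 with TNF at 10, 1 and 0.1 ng/ml. It was 0.69 with lymphotoxin, 0.61 with IL-2 and 0.49 with TGFβ, and none of these was called. The unstimulated 6 h library held 1 Apol7a count, and at 2 h the unstimulated and IFNα1 libraries held 7 each. Apol8 was called in none of the 12 tested comparisons, and its log2 change on adding IFNγ to TNF was 0.36 ± 0.52. In that comparison Apol6 and Apol10b were called and Apol8, in the same cluster, was not, from 26 counts with TNF and 36 in the combination. A small rise of Apol8 was not detectable at this depth. With IFNγ at 100 ng/ml against unstimulated cells, not tested, the log2 change was 1.14 for Apol8 and 1.37 for Apol7a. That of Apol8 was also 1.12 with lymphotoxin and 1.55 with TGFβ, neither of them called. Between the Apol genes lie 9 other genes, of which only Rbfox2, an RNA splicing factor, was tested. Its log2 change on adding IFNγ to TNF was 0.22 ± 0.06 (adjusted p = 0.00894), against 6.34 for Apol6.

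The genes of interferon signalling were read alongside, from a list of 13 receptors, kinases, transcription factors and inhibitors, all tested. With IFNα1, 6 of the 13 rose and 0 fell, where 9.27% of all genes were called and 6.18% were called higher. The median log2 change was 0.39 against -0.03 over all genes. Among those that rose were Irf1 (1.94 ± 0.30), a transcription factor, Usp18 (1.29 ± 0.24), which restrains type I receptor signalling, Stat2 (1.02 ± 0.17) and Irf9 (0.39 ± 0.07). Irf9 is the DNA-binding part of the complex that recognises ISRE letters, and Irf1 binds related sites. On adding IFNγ to TNF, Irf1 (2.77 ± 0.28), Socs1 (2.32 ± 0.26), a feedback inhibitor of JAK kinases, Jak2, Ifnar2 and Irf9 rose and Ifngr2 fell by 0.34. The median was 0.21 against -0.01 over all genes, of which 14% were called and 9.12% were called higher.

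With TNF at 10 ng/ml, 10 of the 13 rose and 0 fell, where 17.1% of all genes were called and 9.83% were called higher. The median was 0.52 against -0.02 over all genes. The 10 included Irf1 (1.84 ± 0.30) and Ifngr2 (1.18 ± 0.11), a chain of the IFNγ receptor. In this comparison Apol6 stood at a log2 change of 0.71 ± 0.90. On adding TNF to IFNγ, 8 of the 13 rose and 0 fell, among them Ifngr2 (1.13 ± 0.12) and Socs1 (0.77 ± 0.22). The median was 0.40 against -0.01 over all genes, of which 13.9% were called and 8.49% were called higher. Of 16 apolipoproteins of other families, 6 were tested. Apod, a lipocalin, rose with IFNα1 by 2.45 ± 0.37 (adjusted p = 3.00e-05), and Apob fell by 1.12 ± 0.33 (adjusted p = 0.0168) on adding TNF to IFNγ. The other 4 tested, Apoa2, Apoe, Apoo and Apool, passed in none of the tested comparisons.

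The genes whose log2 CPM patterns were most like each member's over the 48 libraries were taken by Pearson r, as a description with no p. Libraries share stimuli and depth, so high values arise among any genes with the same response. For Apol6 they were Gm4841 (0.939), Batf2 (0.937), Socs3 (0.934), Wars (0.929) and Gbp11 (0.928). For Apol10b they were Clic5 (0.898), Wars (0.884), Enc1 (0.882), Apol6 (0.878) and Serpina3f (0.877). The Apol9 pair had other genes beside it. For Apol9a these were Irf9 (0.960), Apol9b (0.957), Ifi208 (0.955), Rnf114 (0.952) and Ifi206 (0.947), and for Apol9b Dhx58 (0.960), Apol9a, Irf9 (0.957), Isg20 (0.952) and Apobec1 (0.948). Between the 2 kinds r was lower, at 0.557 for Apol6 with Apol9a and 0.283 for Apol10b with Apol9b.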

How the data were processed

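The authors deposited unnormalised counts of reads for 49671 Ensembl genes in 48 libraries, and reads were aligned with HISAT to GRCm38, per the submitters' processing notes. The library preparation kept strand, per the labels' protocols. For the HISAT version, counting tool, annotation, strand setting and treatment of multiply matching reads, nothing is given in the sources used. Doses were taken from the stimulus labels. Co-culture supernatant, named in the protocol, was not analysed here.

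The 12203 genes passing edgeR's filter (minimum count 10, minimum total 15) were scaled by TMM and fitted with edgeR 4.0.16 in R 4.3.3 (limma 3.58.1), by robust quasi-likelihood with a term per stimulus and per duration over 48 libraries (33 residual degrees of freedom). The duration term pairs libraries across stimuli. A second fit added slopes on log2 of hours (22 degrees of freedom). Tests were two-sided, and calls had a Benjamini-Hochberg adjusted p under 0.05 over all genes tested. SE is approximate, from the log2 change and the F statistic (change over root F). Ratios at single durations used a prior count of 2. Counting intervals are exact binomial at 95%, and a count of 0 allows up to 3 counts. Both fits were tested on simulated data. Alternatives included DESeq2 1.42.0. The members, gene lists and tests were chosen with earlier results of these data known. All members, other Apol rows, genes between them, list genes and the 5 most alike genes per member could be named.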

Additional observations from a re-analysis of the deposited data

Results flagged for a closer look

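Within each group of 4 libraries, the highest or lowest CPM was set against the others by the size of its gap relative to the range (Dixon's test at its 95% critical value). Of 48 combinations of member and group, 6 stood out in this way. Chance gives about 1 in 20 where the 4 values differ by chance alone, which need not hold for libraries of 4 durations. This rate also does not hold for the 3 combinations where the other libraries are all at 0, since any count then stands out. Since the 4 libraries are durations, such a library may be a time point and not an aberrant sample, which was not tested. Apol6 in the combination was lowest at 2 h, at 15.96 CPM against 49.2 to 55.5 CPM at the later durations. Apol10b with IFNγ at 100 ng/ml was highest at 6 h, at 2.75 CPM against 1.32 to 1.42 CPM. Apol9a with TGFβ was highest at 12 h, at 105 CPM against 67.8 to 70.9 CPM. The 3 whose other libraries are at 0 concern Apol10b, at 0.431 CPM in the unstimulated 2 h library (3 counts), 0.525 CPM in the 6 h library with TNF at 1 ng/ml (5 counts) and 0.488 CPM in the 6 h library with TNF at 10 ng/ml (4 counts).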

How the results depend on the processing

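No test rests on replicates at a single duration, and changes of Apol6 and Apol10b outside the interferon groups rest on few counts, which limits what could be detected. Adding IFNγ to TNF called 4 of 4 members, and between 2 and 4 when 1 duration was left out. Apol6 and Apol10b were called in all 11 alternatives run, with log2 changes of 5.90 to 6.65 and 4.42 to 8.37. The choice of genes on a rise with IFNγ, and for Apol10b also the filter on low counts, favours these calls, so they are no independent evidence. The count was 2 with the 2 h and 6 h libraries alone, 2 with the 12 h and 24 h libraries alone and 2 without the replicate block, where the duration term, which pairs the libraries of a duration, was dropped. Without this replicate block IFNα1 called 0 members, TNF at 10 ng/ml called 0 and adding TNF to IFNγ called 0. IFNα1 called 1 member from the 12 h and 24 h libraries alone. TNF at 10 ng/ml called 0 to 2 members when 1 duration was left out (2 without 2 h, 0 without 6, 12 or 24 h), 2 with DESeq2 size factors, 2 with DESeq2, 0 without a filter on low counts and 0 with the 2 h and 6 h libraries alone. TNF at 1 ng/ml called 2 members when the compared groups were fitted alone. Adding TNF to IFNγ called 0 to 2 members when 1 duration was left out (2 without 2 h, 0 without 6 h), 2 with the compared groups alone, 2 with the 12 h and 24 h libraries alone, 0 with the 2 h and 6 h libraries alone and 0 with DESeq2. The cause of these shifts was not tested, beyond the fewer libraries of the duration subsets. No change that reversed was called. Apol10b, from a few counts, had the widest ranges of log2 change over the alternatives, from -3.23 to 3.57 with TNF at 10 ng/ml, -3.23 to 3.67 with TNF at 1 ng/ml, -1.39 to 3.24 with TGFβ, -1.26 to 3.25 with IL-2, -3.05 to 3.53 for the TNF slope and -1.06 to 2.37 for the IFNα1 slope. Apol6 ranged from -1.19 to 0.18 with lymphotoxin, -0.44 to 0.44 with IL-2, -0.20 to 0.97 and -0.029 to 0.80 with TNF at 0.1 and 1 ng/ml, and -0.18 to 0.34 for the TNF slope. Apol9a with TGFβ ranged from -0.10 to 0.048 when 1 duration was left out, and stood at 0.074 with the 2 h and 6 h libraries alone and at 0.041 against IL-2 libraries, and the summed Apol9a and Apol9b row stood at -0.021 with IL-2. Over the alternatives, the share of all genes called ranged from 2.36% to 21.6% with TNF at 10 ng/ml, from 1.43% to 11.1% with IFNα1, from 3.49% to 20% on adding IFNγ to TNF and from 2.87% to 19.1% on adding TNF to IFNγ.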
